A study of Mus musculus with 6 samples.

Results

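PD-L1, the ligand on tumour cells that engages the inhibitory T cell receptor PD-1, is encoded by Cd274, and its amount at the cell surface depends both on its mRNA and on proteins that protect or destroy it. Described here are 8 genes, chosen by symbol from the 28063 genes of the table: Cd274, Pdcd1lg2 (PD-L2, the other PD-1 ligand), and the PD-L1 stability genes Cmtm6, Cmtm4, Spop, Stub1, Cops5 and Hip1r. Of these, 7 had a row of counts, and Pdcd1lg2 had none in the table used here, so no value is given for it. Cd274 was chosen with its difference between the groups already known, so its values are a description and carry no test. The other 7 were named for what they do to PD-L1 or PD-1, and the 6 of them with a row were tested.

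The cells are E0771, a mouse mammary carcinoma line, in 3 populations with 2 RNA sequencing libraries each. Malt1_PD cells express a mutant of Malt1 that the labels call PD without spelling it out, Malt1_WT cells express wild-type Malt1, and Vector cells carry the control vector. All 3 populations were treated alike: coculture with activated CD8 T cells for 12 hours, at 3 T cells for each tumour cell, then a wash, trypsin and reseeding, with lysis 6 hours later. Cells that never met T cells were not analysed here. The labels do not say what promoter drove Malt1, whether a population was a clone or a pool, or whether each library had its own culture. P-values therefore rest on the spread between libraries of a group, pooled over the 3 groups. For each gene this spread is drawn toward that of genes of like level, and it may be technical. The form of Malt1 cannot be told apart from any other difference between the populations.

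Libraries held 14045390 to 19962014 counts, so that 3 counts, taken as the floor for 1 gene, came to between 0.150 and 0.214 CPM (counts scaled to a common library size); floors and counting intervals cover counting error only. Malt1 was at 95.7 to 105.5 CPM in Malt1_PD, 67.2 to 82.1 CPM in Malt1_WT and 23.8 to 31.3 CPM in Vector, in the direction of the labels. Of the markers of a mammary carcinoma, Krt8 (107.8 to 124.1 CPM) and Epcam (6.16 to 8.97 CPM) were counted, whereas Krt18, Krt19 and Cdh1 stayed at or below 0.598 CPM and the mesenchymal marker Vim was abundant (3776 to 4645 CPM). Of 5 fibroblast markers, Pdgfra (122.6 to 147.2 CPM) and Pdgfrb (85.1 to 137.8 CPM) were abundant, Dcn was at 6.05 to 12.5 CPM, Lum was at or below 0.281 CPM, and Thy1 had no row. Summed over the 7 of 9 T cell markers with a row, the libraries held 4 and 9 counts in Malt1_PD, 3 and 16 in Malt1_WT, and 11 and 6 in Vector. Single markers did not go 1 way. Cd8a and Ifng each had 1 count in Vector replicate 1 and 0 in the other libraries. Cd3g had 1 and 3 counts in Malt1_WT and 0 in the other groups. Cd3d had 1 and 4 in Malt1_PD, 0 in Malt1_WT, and 1 and 1 in Vector. Cd8b1 had 0 and 1 in Malt1_PD, 0 and 5 in Malt1_WT, and 0 and 3 in Vector. Vector replicate 1 and Malt1_WT replicate 1 were low on long genes: over 9573 genes, the log2 difference of replicate 1 from replicate 2 had a Spearman rho with gene length of 0.05 in Malt1_PD, -0.53 in Malt1_WT and -0.67 in Vector. The 5 myeloid markers, from cells that can carry PD-L1, summed to 7.31 to 8.29 CPM in Malt1_PD, 7.90 to 9.22 CPM in Malt1_WT and 9.08 to 11.03 CPM in Vector. In neither sum did Malt1_WT lie apart from both other groups. Of the 5 myeloid markers, Cd68 (4.46 to 7.60 CPM) and Lyz2 (2.04 to 3.15 CPM) were counted most. Csf1r, Itgam and Adgre1 stayed at or below 0.569 CPM.

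PD-L1 on the surface is recycled or degraded. CMTM6 is a membrane protein that binds PD-L1 and keeps it out of the lysosome, and its relative CMTM4 can stand in for it in human cells. SPOP, the substrate adaptor of a cullin 3 ubiquitin ligase, and STUB1 (CHIP), a chaperone-linked ubiquitin ligase, promote loss of PD-L1 in human tumour cells, whereas COPS5, the catalytic subunit of the COP9 signalosome, removes ubiquitin from it. HIP1R, an endocytic adaptor, was found in human cells to carry PD-L1 to the lysosome. None of these activities is measured by RNA sequencing, which gives the mRNA level only.

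Cd274 (ENSMUSG00000016496.7) lies on the plus strand of chromosome 19, from 29367455 to 29388095 in GRCm38, with 1 annotated transcript. In GENCODE M21 its first base lies 65 bases from that of Plgrkt, a plasminogen receptor gene read in the opposite direction, so the pair is divergent. The 64 bases between the starts (chr19:29367391-29367454, GRCm38.p6, plus strand, from RefSeq) are shown. They lie between a gene whose mRNA differed between the populations and one whose mRNA was not called different. Whether an element in them acts on either gene was not tested. The capitals mark a GC box.
Plgrkt to Cd274: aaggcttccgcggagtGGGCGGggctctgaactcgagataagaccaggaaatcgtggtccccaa
RefSeq places the start of Cd274 17 bases earlier, at 29367438, within this stretch. In the 250 bases before the RefSeq start, both strands were searched for GAS (an interferon-gamma response site, TTCNNNGAA), most of an ISRE (the IRF site, TTTCNNTTC), a kappa B core (GGGANTTCC), an AP-1 site (TGANTCA) and the GC box (GGGCGG). Only the GC box was matched, 1 time, as it was in 32.7% of 32851 mouse promoter windows. GAS letters stood in 7.02% of them, the ISRE letters in 6.31%, kappa B in 1.43% and AP-1 in 6.75%. A window was at hand for 7 of the 8 genes. The GC box stood in those of Cmtm6, Cmtm4, Spop, Stub1 and Hip1r too, and no window of the 7 held another of these motifs.

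Cd274 mRNA was abundant in one population and scarce in the others. Malt1_PD libraries held 77 and 60 counts (exact 95% Poisson intervals of 60.8 to 96.2 and 45.8 to 77.2), Malt1_WT libraries 6585 and 10932 counts, and Vector libraries 75 and 78 counts (59.0 to 94.0 and 61.7 to 97.3). At matched depth this is 4.87 and 3.57 CPM in Malt1_PD, 468.7 and 545.1 CPM in Malt1_WT, against 4.22 and 4.37 CPM in Vector. Both Malt1_WT libraries lay far above the other 4, and Malt1_PD and Vector overlapped, with counting intervals that overlap as well. The level in Malt1_PD and Vector was above the floor in each library, so the mRNA was detected there.

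The means of Cd274 were 4.22 ± 0.923 CPM in Malt1_PD and 506.9 ± 54.0 CPM in Malt1_WT (SD over 2 libraries each). The log2 fold change was thus -6.91 ± 0.16 (SE), a level 120.3-fold lower in Malt1_PD. Against 4.30 ± 0.104 CPM in Vector, the log2 fold change was -0.03 ± 0.18 for Malt1_PD and 6.88 ± 0.16 for Malt1_WT. These are the values for which Cd274 was chosen, and the 3 comparisons share libraries with each other. In bulk RNA, more cells with Cd274 mRNA and more of it per cell cannot be told apart. Ranked by CPM among 14675 genes, Cd274 stood at places 10368 and 10774 in Malt1_PD, 285 and 223 in Malt1_WT, and 10548 and 10423 in Vector. In the Malt1_WT libraries it took 0.0469% and 0.0548% of all counts. The log2 difference of Malt1_PD from Vector moved to -0.27 without Malt1_PD replicate 1 and to 0.18 without Malt1_PD replicate 2, so its sign depended on which Malt1_PD library was kept.

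**Figure D1:**
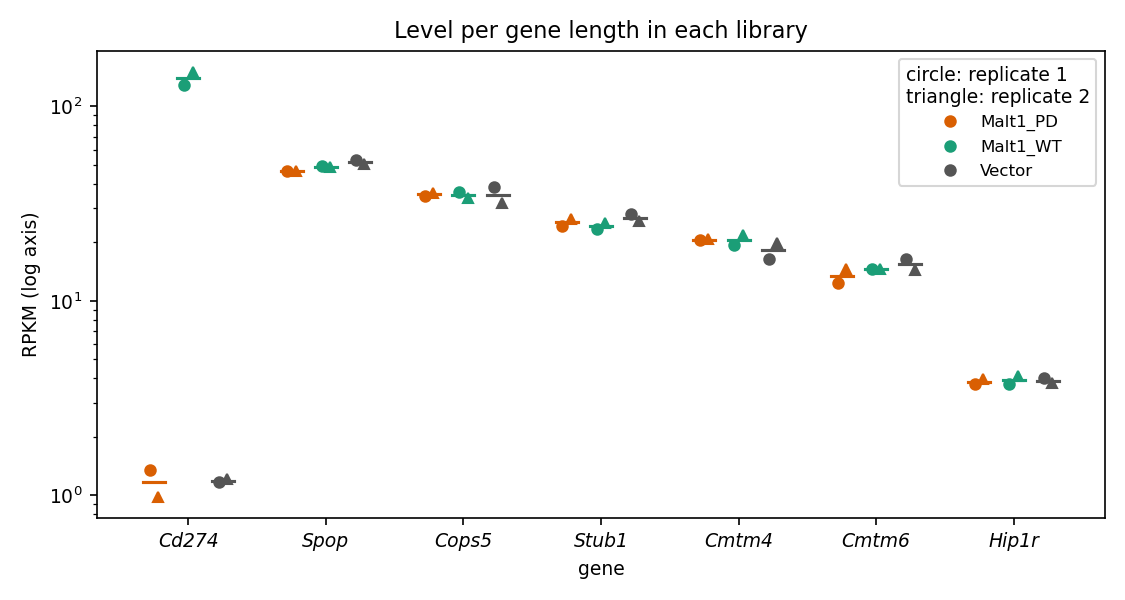
RPKM of Cd274 and the 6 stability genes in each library, on a log axis, with Malt1_PD, Malt1_WT and Vector from left to right for each gene; circles are replicate 1, triangles replicate 2 and bars group means. Cd274 lies below every other gene in Malt1_PD and Vector and above every one in Malt1_WT, while each stability gene stays within a narrow band.

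Levels can be compared between genes only per length, and the deposited gene lengths were used for this (RPKM, CPM per kilobase of gene length). The 6 stability genes kept 1 order in all 6 libraries: Spop, Cops5, Stub1, Cmtm4, Cmtm6 and Hip1r, from high to low. Over the 6 libraries Spop ranged from 46.6 to 53.0 RPKM, Cops5 from 31.8 to 38.6 RPKM, and Stub1 from 23.4 to 27.9 RPKM. Cmtm4 ranged from 16.5 to 21.9 RPKM, Cmtm6 from 12.3 to 16.4 RPKM and Hip1r from 3.72 to 4.11 RPKM. No range overlapped that of its neighbour in the order, although those of Cmtm4 (lowest 16.49) and Cmtm6 (highest 16.40) nearly touched, both in Vector replicate 1. Cd274 took the last place, at 0.984 to 1.34 RPKM in Malt1_PD and 1.17 to 1.21 RPKM in Vector, and the first place in Malt1_WT, at 129.4 to 150.5 RPKM. Set against Cmtm6 in the same library, Cd274 stood at a ratio of 0.0678 to 0.109 in Malt1_PD, 8.92 to 10.29 in Malt1_WT and 0.0711 to 0.0836 in Vector. The mRNA of the PD-L1 ligand thus ranged from less than that of its partner to several times more, on the RPKM scale.

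None of the 6 stability genes was called in any of the 3 comparisons by edgeR's quasi-likelihood test at a Benjamini-Hochberg adjusted p under 0.05 over all 14675 genes. In each comparison the share of all genes called was 0.00681%, which is 1 gene. In Malt1_PD against Vector that gene was Malt1. In the other comparisons it was Cd274, which was chosen for this difference, so nothing is read from that share. With 1 gene called, a count of 0 of 6 lies near that background. At an unadjusted p under 0.05 the count was also 0 of 6 in each comparison, against 1.92% of all genes in Malt1_PD against Malt1_WT, 8.61% in Malt1_PD against Vector and 7.09% in Malt1_WT against Vector. DESeq2 also called 0 of 6 each time, and of all genes it called 1 in Malt1_PD against Malt1_WT, 43 in Malt1_PD against Vector and 31 in Malt1_WT against Vector. These counts changed with the libraries kept. In Malt1_PD against Vector, edgeR called 111 of all genes without Vector replicate 1, 928 without Vector replicate 2, and 0 without Malt1_PD replicate 1 or without Malt1_PD replicate 2. In Malt1_WT against Vector it called 50 and 599 of all genes without Vector replicate 1 or 2. Without Vector replicate 1 and Malt1_WT replicate 1 together, it called 358, 2080 and 936 of all genes in the 3 comparisons.

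The 95% intervals, each for 1 gene and not adjusted, give the range of change that the values leave room for. They do not give the size of change that would be called. Malt1 itself stood 2.71-fold higher in Malt1_WT than in Vector and was not called (edgeR adjusted p = 0.0920). In Malt1_PD against Malt1_WT, the comparison in which Cd274 stood 120.3-fold lower, the 95% intervals of the 6 stability genes ran from 0.772-fold to 1.22-fold. They ran from 0.730-fold to 1.35-fold in Malt1_PD against Vector and from 0.775-fold to 1.35-fold in Malt1_WT against Vector. The median log2 fold changes of the 6 genes were -0.01, -0.05 and -0.04 in the same order of comparisons, and that of all genes was between -0.0016 and -0.0011 in each.

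Cmtm6 (ENSMUSG00000032434.9, chromosome 9, 114731116 to 114749344), the PD-L1 protector, had 42.4 and 49.9 CPM in Malt1_PD, 49.9 and 50.3 CPM in Malt1_WT, against 56.4 and 49.6 CPM in Vector. The groups overlapped in each comparison. The log2 fold change was -0.12 ± 0.11 in Malt1_PD against Malt1_WT and -0.20 ± 0.11 in Malt1_PD against Vector (edgeR adjusted p = 0.669). Cmtm4 (ENSMUSG00000096188.1, chromosome 8, 104348191 to 104395807), its relative, had 158.5 and 160.7 CPM in Malt1_PD, 150.0 and 169.0 CPM in Malt1_WT, against 127.5 and 154.4 CPM in Vector. Vector replicate 1 was the lowest of the 6 libraries for this gene (7734 nt), and Malt1_PD and Vector did not overlap, as for 38.1% of all genes. The log2 fold change from Vector was 0.18 ± 0.11 in Malt1_PD (edgeR adjusted p = 0.707) and 0.18 ± 0.11 in Malt1_WT (adjusted p = 0.796). With the gene length trend removed it was 0.16 in Malt1_PD. Why Vector replicate 1 was low was not tested. Without Vector replicate 2, which leaves the low library as the only Vector one, Cmtm4 was called higher in Malt1_PD, at 0.33. That fit called far more of all genes than the main fit, as given above. Per length, Cmtm4 lay above Cmtm6 in all 6 libraries.

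Of the ubiquitin ligase genes, Spop (ENSMUSG00000057522.15, chromosome 11, 95414080 to 95493406) had 147.3 CPM in each Malt1_PD library. It had 155.4 and 153.8 CPM in Malt1_WT, against 167.4 and 160.2 CPM in Vector. No groups overlapped, in the order Malt1_PD, Malt1_WT and Vector from low to high, but the steps were small. The log2 fold changes were -0.07 ± 0.08 in Malt1_PD against Malt1_WT, -0.15 ± 0.08 in Malt1_PD against Vector (edgeR adjusted p = 0.624) and -0.08 ± 0.08 in Malt1_WT against Vector. Taken comparison by comparison, groups failed to overlap for 32.1%, 38.1% and 32.6% of all genes. Spop kept its sign under all 13 alternatives in each comparison. Where groups do not overlap, leaving out a library can hardly reverse the sign, so nothing is read from this. Stub1 (ENSMUSG00000039615.9 in GENCODE M21, chromosome 17, 25830505 to 25833404), the gene of CHIP, had 40.6 and 44.3 CPM in Malt1_PD, 39.1 and 41.8 CPM in Malt1_WT, against 46.6 and 43.0 CPM in Vector. Both Malt1_WT libraries were below both Vector libraries, with a log2 fold change of -0.14 ± 0.10 (edgeR adjusted p = 0.818).

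Cops5 (ENSMUSG00000025917.9, chromosome 1, 10024601 to 10038168), the deubiquitinating subunit, had 131.1 and 135.3 CPM in Malt1_PD, 137.2 and 128.1 CPM in Malt1_WT, against 145.4 and 119.8 CPM in Vector. The Vector libraries spanned the values of all the others, and the 3 group means lay between 132.6 and 133.2 CPM. Without Vector replicate 1 and Malt1_WT replicate 1 together, Cops5 was called higher in Malt1_PD against Vector, at 0.15. The only replicated group of that fit is Malt1_PD, and it called far more of all genes than the main fit. Hip1r (ENSMUSG00000000915.15, chromosome 5, 123973628 to 124005558), the endocytic adaptor, had 27.6 and 29.1 CPM in Malt1_PD, 27.4 and 30.3 CPM in Malt1_WT, against 29.4 and 27.8 CPM in Vector. All 3 groups overlapped, and over the 6 libraries the coefficient of variation was 4.09%, against 4.99% for Spop, 6.26% for Stub1, 6.55% for Cops5, 8.94% for Cmtm6 and 9.25% for Cmtm4. Stub1, Cops5 and Hip1r overlap Jmjd8, Cspp1 and Vps37b on the other strand, and whether the counting used strand is not given in the sources used here; some of their reads may belong to those genes.

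**Figure D2:**
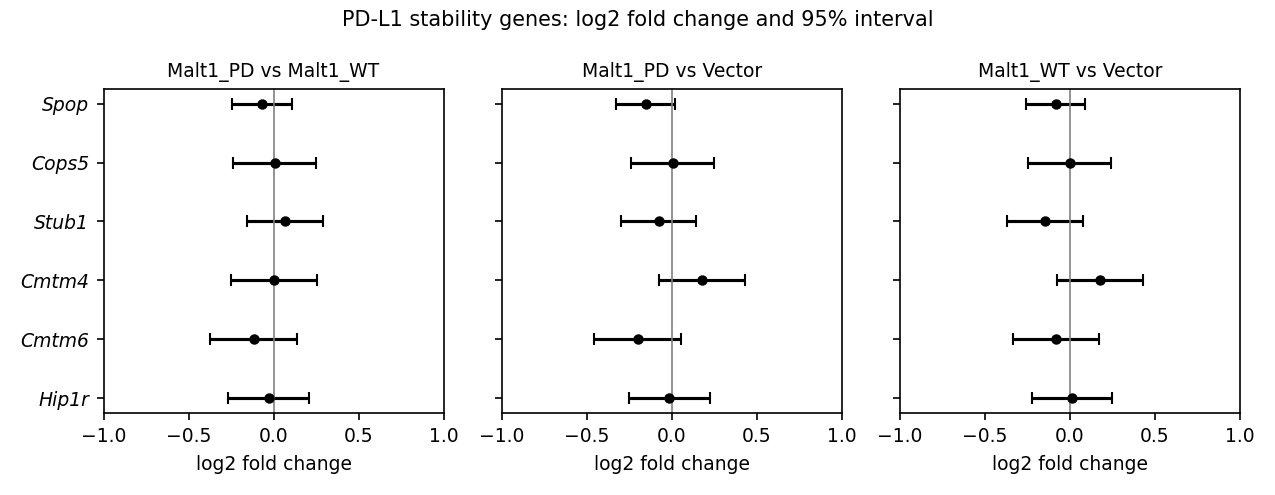
Log2 fold change (points) and 95% interval (bars) of the 6 stability genes in Malt1_PD against Malt1_WT, Malt1_PD against Vector and Malt1_WT against Vector. Every interval includes 0, and none reaches 0.5 on either side.

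The members belong to larger complexes and families, and 8 lists of genes that act with them or on PD-L1 or Cd274, with the neighbours of Cd274 as the ninth, were described by counts. Over these lists 107 genes were tested, the stability genes included and Cd274 left out, and edgeR and DESeq2 each called 0 of them in each comparison. At an unadjusted p under 0.05 there were 2 in Malt1_PD against Malt1_WT (1.87%), 10 in Malt1_PD against Vector (9.35%) and 4 in Malt1_WT against Vector (3.74%), near or below the shares of all genes given above. Values of single genes below are log2 fold changes ± SE, and none of these genes was called.

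In the CMTM family 5 of 10 genes were tested. Besides the members these were Cmtm3, Cmtm7 and Cklf, with log2 fold changes of 0.13 ± 0.10, 0.12 ± 0.12 and 0.02 ± 0.18 in Malt1_WT against Vector. All 10 subunits of the COP9 signalosome were tested, with medians of 0.00, -0.03 and -0.03 in Malt1_PD against Malt1_WT, Malt1_PD against Vector and Malt1_WT against Vector. Cops2 stood at 236.5 ± 6.88 CPM in Malt1_PD, 214.5 ± 4.64 CPM in Malt1_WT and 245.8 ± 4.82 CPM in Vector (SD, n = 2 each). This is -0.20 ± 0.08 in Malt1_WT against Vector (edgeR unadjusted p = 0.0307, adjusted p = 0.652). The subunits Cops3 and Cops7a stood at -0.07 ± 0.09 and -0.09 ± 0.09 there. None of the 10 subunits, the catalytic Cops5 included, was called in any comparison.

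Among 12 genes of SPOP and CHIP partners, the medians were 0.02, -0.06 and -0.07 in the same order of comparisons. Hsp90aa1, a chaperone that CHIP binds, averaged 900 ± 20.1 CPM in Malt1_WT and 1072 ± 43.1 CPM in Vector (-0.25 ± 0.07, edgeR unadjusted p = 0.00649, adjusted p = 0.460). Without Vector replicate 2 it was called in this comparison, at -0.29, in a fit that called far more of all genes than the main fit. Its paralog Hsp90ab1 stood at -0.05 ± 0.06 and Ube2d3, a ubiquitin-conjugating enzyme gene, at -0.09 ± 0.08. Cul3, the scaffold of the SPOP ligase, was at 0.08 ± 0.09 in Malt1_PD against Malt1_WT. Among the 11 tested endocytic genes, Rab11a, which marks the recycling endosomes, averaged 62.2 ± 6.00 CPM in Malt1_PD, 64.9 ± 2.52 CPM in Malt1_WT and 76.3 ± 2.88 CPM in Vector. Both populations with added Malt1 lay below Vector, at -0.29 ± 0.10 (edgeR unadjusted p = 0.0164, adjusted p = 0.478) and -0.23 ± 0.10 (0.0428 and 0.680). Ap2m1 and Cltb, of the clathrin coat machinery, stood at -0.09 ± 0.08 and 0.13 ± 0.13 in Malt1_WT against Vector.

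Another 24 genes were listed for a reported role in PD-L1 glycosylation, palmitoylation, trafficking, ubiquitination or shedding. Their medians were -0.03, -0.02 and 0.01. B3gnt3, a glycosyltransferase gene, averaged 62.3 ± 1.63 CPM in Malt1_PD, 65.8 ± 2.07 CPM in Malt1_WT and 74.3 ± 0.495 CPM in Vector, or -0.25 ± 0.08 in Malt1_PD against Vector (edgeR unadjusted p = 0.0148, adjusted p = 0.478). Zdhhc9, which encodes a palmitoyltransferase, stood at -0.26 ± 0.10 there. The ubiquitin ligase gene Itch stood at 0.22 ± 0.12 in that comparison. Without Vector replicate 2 it was called there, at 0.42, in a fit that called far more of all genes than the main fit.

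Of 20 listed genes that act on Cd274 transcription (interferon-gamma receptor, JAK, IRF, NF-kB, AP-1 and other factors), none was called in any comparison, and the medians were -0.05, -0.05 and -0.03. Irf1, the main activator of Cd274 under interferon-gamma, averaged 61.3 ± 8.35 CPM in Malt1_PD, 65.5 ± 2.95 CPM in Malt1_WT and 61.6 ± 4.30 CPM in Vector (SD, n = 2 each); it was chosen after its values were seen. Ifngr2 and Irf2 stood at -0.28 ± 0.10 and -0.25 ± 0.09 in Malt1_PD against Vector, and at -0.15 ± 0.10 and -0.13 ± 0.09 in Malt1_WT against Vector.

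Genes of factors that stabilise or destabilise mRNAs, among them those reported to act on Cd274 mRNA, numbered 14, with medians of -0.02, 0.01 and 0.01. Zfp36, which encodes tristetraprolin, a decay factor of AU-rich mRNAs that targets Cd274 mRNA, averaged 14.7 ± 1.34 CPM in Malt1_PD, 19.0 ± 1.44 CPM in Malt1_WT and 20.9 ± 2.26 CPM in Vector. Its log2 fold change was -0.37 ± 0.14 in Malt1_PD against Malt1_WT (edgeR unadjusted p = 0.0276, adjusted p = 1.00), -0.50 ± 0.14 in Malt1_PD against Vector (0.00615, adjusted p = 0.381) and -0.13 ± 0.13 in Malt1_WT against Vector. Without Vector replicate 2, Zfp36 was called in Malt1_PD against Vector, at -0.60, in a fit that called far more of all genes than the main fit. Igf2bp2, an mRNA-binding protein gene, stood at -0.22 ± 0.10 in Malt1_PD against Vector, and its relative Igf2bp1 at 1.34 ± 0.64, with 19 and 9 counts in Malt1_PD against 7 and 5 in Vector.

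**Figure D3:**
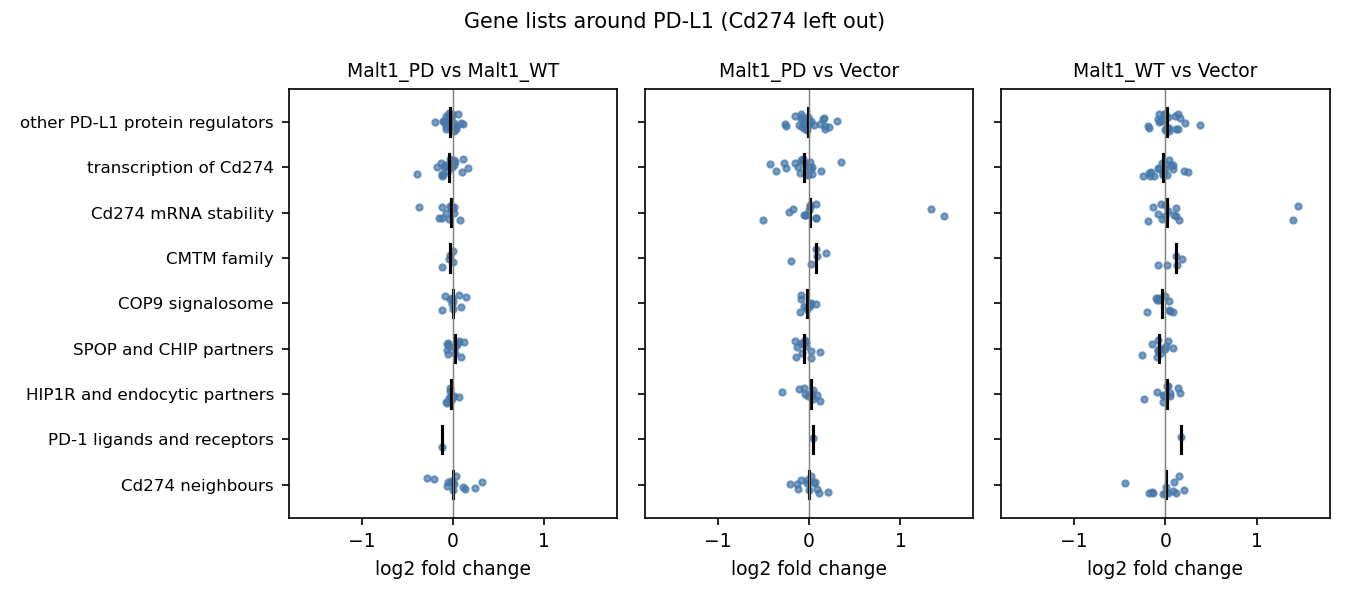
Log2 fold change of each tested gene (points) and the median (black bars) in 9 lists, Cd274 left out, for the 3 comparisons. Nearly all points lie close to 0; the pair to the right in the mRNA stability list against Vector are the thinly counted Igf2bp1 and Igf2bp3.

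Of the remaining listed genes of the PD-1 pathway with a row, all but Rgmb were scarce. Cd80, which binds PD-L1 on the same cell, had 5 and 5 counts in Malt1_PD, 8 and 11 in Malt1_WT, and 8 and 5 in Vector. Pdcd1, the gene of PD-1 and a T cell marker in this setting, had 2 and 1 counts in Malt1_PD, 2 and 7 in Malt1_WT, and 4 and 1 in Vector. Cd86 and Ctla4 had at most 1 count in any library. Rgmb, a binding partner of PD-L2, was the 1 other gene of this list to be tested, at 24.5 ± 2.17 CPM in Malt1_PD, 26.7 ± 1.92 CPM in Malt1_WT and 23.7 ± 0.836 CPM in Vector.

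Cd274 stood apart from the genes around it on chromosome 19. Of 25 annotated genes that start within 500000 bases of it, 17 had a row and 13 were tested, with log2 fold changes from -0.29 to 0.32 in Malt1_PD against Malt1_WT and from -0.44 to 0.21 in Malt1_WT against Vector. Both tools called 0 of the 13, and none had an unadjusted p under 0.05. Plgrkt, whose start is the closest, had 13.9 and 14.4 CPM in Malt1_PD, 12.7 and 11.4 CPM in Malt1_WT, against 13.2 and 14.1 CPM in Vector. Its Malt1_WT libraries were the lowest of the 6, with a log2 fold change of 0.24 ± 0.13 in Malt1_PD against Malt1_WT (edgeR unadjusted p = 0.109, adjusted p = 1.00). Groups did not overlap for 32.1% of all genes in that comparison. Per length, Cd274 stood at 0.259 to 0.367 of the Plgrkt level in Malt1_PD, at 38.6 to 50.3 times it in Malt1_WT, and at 0.326 to 0.336 of it in Vector.

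The next genes with a row on the same side are Insl6, a relaxin family gene, and Jak2, a kinase of the interferon-gamma receptor. In Malt1_WT against Vector they stood at 0.00 ± 0.26 and -0.03 ± 0.13. On the other side, Pdcd1lg2 has no row, Ric1 stood at 0.10 ± 0.14, Ermp1 averaged 97.8 ± 2.67 CPM in Malt1_WT and 97.9 ± 12.6 CPM in Vector, and the noncoding gene A930007I19Rik was counted too thinly to be tested. The antisense gene AC119228.1, which overlaps Cd274, has no row in the table. The difference in Cd274 between Malt1_WT and the other populations was thus not found at any tested gene of its surroundings.

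**Figure D4:**
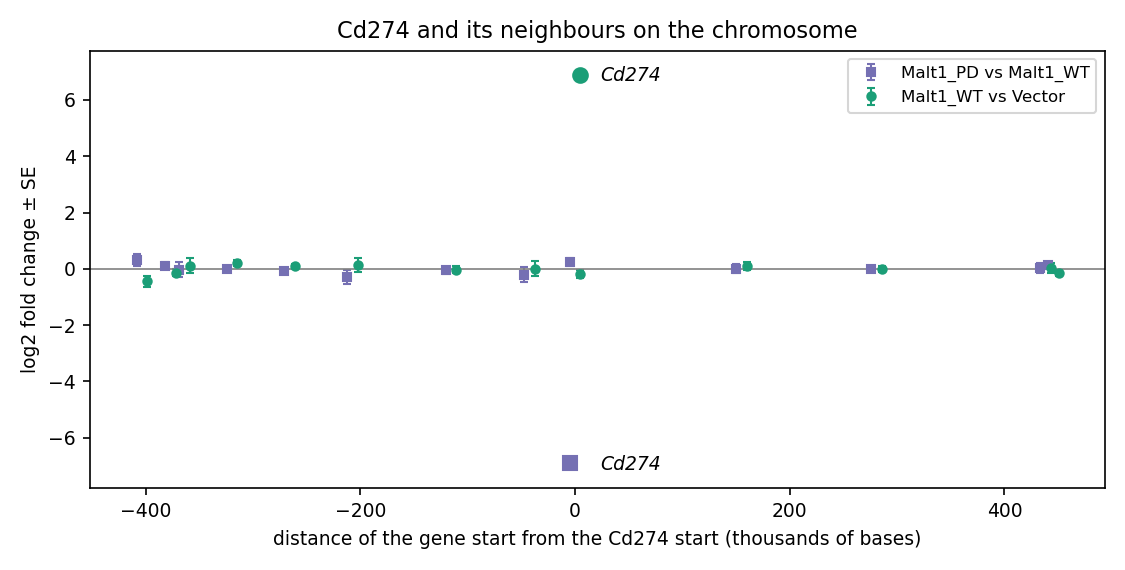
Log2 fold change ± SE of Cd274 (large symbols) and of the 13 tested genes within 500000 bases of its start, by distance in kilobases, for Malt1_PD against Malt1_WT (squares) and Malt1_WT against Vector (circles). The neighbours lie near 0 on both sides while Cd274 lies at -6.91 and 6.88.

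No other gene had the pattern of Cd274 at a like size. Likeness was measured as the gap, on log2 CPM, between the lower Malt1_WT library and the highest of the other 4 libraries, over 13086 genes with a mean log2 CPM of at least 0 in Malt1_WT. Cd274 had a gap of 6.55, and it was the 1 gene with a gap above 1, while 680 genes had a gap above 0. The 5 genes after it were 2700029L08Rik (0.78), Capn6 (0.70), Gm20712 (0.62), Gm45718 (0.62) and Gm8712 (0.55). All 5 were thinly counted, at or below 1.42 CPM in each library. Capn6, a calpain family gene, had 0.569 and 0.416 CPM in Malt1_PD, 1.21 and 0.997 CPM in Malt1_WT, against 0.169 and 0.0560 CPM in Vector. The gap was not tested, and the Cd274 values are those for which the gene was chosen.

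**Figure D5:**
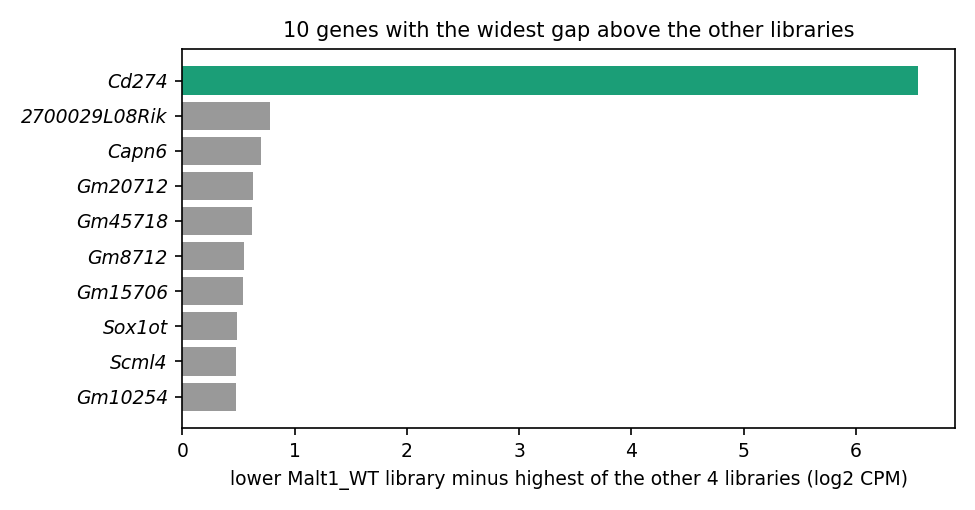
The 10 genes with the widest gap between the lower Malt1_WT library and the highest of the 4 Malt1_PD and Vector libraries, in log2 CPM. Cd274 stands at 6.55, and the other bars stay below 0.8.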

How the data were processed

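The members and lists were chosen with earlier results of these data known. The deposited table holds raw counts per gene for 6 libraries, and the submitters' processing notes list Trim Galore 0.6.0, STAR 2.7.3a, featureCounts 1.6.3 and GRCm38.p6. The sources used here give neither the annotation version nor the strand setting. A further 6 columns of the authors' log2 RPKM were not used. Gene identifiers (28056 of 28063) were matched to GENCODE M21 without version for symbols and positions. The counts of the 3 groups entered edgeR 4.0.16 under R 4.3.3 (filterByExpr, TMM, glmQLFit, glmQLFTest), all 6 libraries in 1 fit with 3 residual degrees of freedom, and Benjamini-Hochberg adjustment ran over 14675 genes. SE were derived from the quasi-likelihood F, and 95% intervals use its degrees of freedom. CPM and RPKM use TMM factors and the deposited lengths. The common dispersion was 0.0101. The procedure was tested on simulated data.

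Named genes were the members, up to 3 genes of each list with the smallest p, the 3 nearest neighbours on each side of Cd274 and the 5 genes with the widest gap after Cd274, with Malt1 as a check of the labels. Irf1, Cul3, Itch, Cd80, Pdcd1, Cd86, Ctla4 and Igf2bp3 were added after their values were seen, and 2 genes that the rule names are not reported here. Alternatives were DESeq2 1.42.0, its size factors, no filter, the 2 groups alone, a replicate block, removal of a gene length trend, leaving out each library and, added later, leaving out the 2 libraries low on long genes together.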

Additional observations from a re-analysis of the deposited data

How the results depend on the processing

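Over 13 alternatives (12 planned and 1 added after the data were seen), 204 of 234 values of the 6 stability genes kept their sign and stayed uncalled, and 28 changed sign. The rest were Cmtm4 and Cops5 in Malt1_PD against Vector, called with libraries left out as given above. Spop and Stub1 kept their sign throughout, and medians of all genes stayed between -0.01 and 0.01. Of all genes, no filter on low counts led to 12, 188 and 113 calls in Malt1_PD against Malt1_WT, Malt1_PD against Vector and Malt1_WT against Vector. In the last 2 comparisons there were 43 and 31 calls with DESeq2, and 95 and 56 with the gene length trend removed. The cause was not tested. Calls ranged from 1 to 358, 0 to 2080 and 1 to 936 when libraries were left out, singly or with Vector replicate 1 and Malt1_WT replicate 1 together; the lone samples are then assumed to vary like the other groups. Stability genes called in Malt1_PD against Vector ranged from 0 to 1, and the Cd274 log2 fold change there from -0.27 to 0.18. It ranged from -7.15 to -6.70 in Malt1_PD against Malt1_WT and from 6.77 to 6.99 in Malt1_WT against Vector.

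The 28 sign changes were in genes whose main log2 fold change lay between -0.08 (Cmtm6) and 0.01 (Hip1r), both in Malt1_WT against Vector. The alternative values reached further from 0. With libraries left out, Cmtm4 in Malt1_PD against Malt1_WT ranged from -0.082 to 0.089, Cops5 from -0.043 to 0.058 and Hip1r from -0.095 to 0.048. In Malt1_PD against Vector, Cops5 ranged from -0.12 to 0.15 and Hip1r from -0.051 to 0.030. In Malt1_WT against Vector, Cmtm6 ranged from -0.17 to 0.021, Cops5 from -0.13 to 0.14 and Hip1r from -0.059 to 0.12. Cops5 there was also at 0.0075 with DESeq2 size factors and the DESeq2 test, 0.0067 with no filter, 0.00012 with the 2 groups alone and 0.014 with the length trend removed, which put Hip1r at -0.0019.

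Among the lists, calls with libraries left out ranged from 0 to 3 (mRNA stability), 0 to 1 (COP9) and 0 to 2 (SPOP and CHIP) in Malt1_PD against Malt1_WT. In Malt1_PD against Vector they ranged from 0 to 5 (protein regulators), 7 (transcription), 2 (mRNA stability), 1 (CMTM), 2 (COP9), 3 (SPOP and CHIP), 2 (endocytic) and 1 (neighbours). In Malt1_WT against Vector the highest counts were 1 (protein regulators), 3 (transcription), 1 (COP9), 3 (SPOP and CHIP), 2 (endocytic) and 1 (neighbours), from 0. Apart from the single genes called without Vector replicate 2, these came from leaving out both libraries together. In the comparisons where they called list genes, both fits called far more of all genes than the main fit, as given above. The main fit tested 24 protein regulators, 20 transcription, 14 mRNA stability, 5 CMTM and 10 COP9 genes. It tested 12 SPOP and CHIP, 11 endocytic and 13 neighbour genes. No list was tested against the share of all genes called, so nothing about a list is read from these counts.

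The labels do not say that replicate numbers pair the samples, and with 2 numbers a group they serve as names. The deviations correlated at 0.03 between Malt1_PD and Malt1_WT, -0.0092 between Malt1_PD and Vector and 0.68 between Malt1_WT and Vector. With the replicate number as a block, edgeR called 9 genes in Malt1_PD against Vector and 6 in Malt1_WT against Vector, 0 of the stability genes in any comparison. Cmtm4 was then at 0.0042 in Malt1_PD against Malt1_WT and Cops5 at 0.0035 in Malt1_WT against Vector.

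With 2 libraries a group and 3 residual degrees of freedom, changes of the stability genes within their intervals remain possible. The intervals set no limit of detection, since Malt1, 2.71-fold higher in Malt1_WT than in Vector, was not called. In Malt1_PD and Vector, Cd274 rests on at most 78 counts a library.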
